A study of Mus musculus with 12 samples.

Results

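Midlobular hepatocytes of mouse liver tissue were examined, that is, hepatocyte nuclei that sit between the pericentral and the periportal end of a zonation score. They were chosen by ranking, within each liver sample, the nuclei that the authors annotated as hepatocytes, outside their cluster 19 and with at least 2000 unique molecular identifiers (UMIs), by log2 of (pericentral UMIs + 1) over (periportal UMIs + 1). The pericentral UMIs were those of Cyp2e1, Cyp1a2, Slc1a2, Glul, Oat, Lgr5, Tbx3 and Cyp2c29, and the periportal UMIs those of Hal, Cyp2f2, Gls2, Hsd17b6, Etnppl, Sds, Amdhd1 and Cryl1. The middle 50% of each sample were taken as midlobular, the 25% with the highest score as pericentral and the 25% with the lowest score as periportal. This gave 6318 midlobular, 3129 pericentral and 3105 periportal nuclei, out of 12552 liver hepatocyte nuclei that could be divided and 53467 annotated nuclei in the series. Each mouse contributed between 266 and 1103 midlobular nuclei.

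Single-nucleus RNA sequencing covered 24 samples from 8 mice, labelled wild type and C57BL6J (the study's methods give male C57BL/6NTac), aged 10 to 12 weeks. Liver pieces were cut from the median lobe after calcium-free perfusion had cleared the blood under avertin. Cell suspension samples were hepatocytes freshly isolated from the same livers with collagenase, and primary hepatocytes were such cells after 24 h of culture on collagen. Samples were multiplexed with hashtag antibodies in 6 pools of 4, and the 8 liver samples lay in pools 1, 2, 5 and 6, so that the zones of one sample always shared a mouse, a pool and a library. The cell suspension sample of mouse 2 bears the name CD2 in the authors' table of nuclei, which puts it in the cell suspension group, and was read as CS2. The score is a ranking by RNA and not a position measured in tissue.

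Hepatocytes along the lobule divide their work. Cells near the portal tract receive oxygen-rich blood and are known for gluconeogenesis and ureagenesis, and cells around the central vein for glutamine synthesis, bile acid synthesis and xenobiotic metabolism. The hepatocytes in between are mostly recognized by having some of both programs, but a few transcripts are known to be highest there, among them Hamp, which encodes hepcidin, the peptide hormone that lowers iron export by binding ferroportin, and Igfbp2, which encodes a secreted carrier of insulin-like growth factors. Hepcidin transcription is driven by bone morphogenetic protein (BMP) signaling through SMAD proteins and by interleukin 6 through STAT3.

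The promoter windows of both genes are shown because these are the 2 transcripts that the midlobular nuclei were searched for. They are from RefSeq on GRCm38.p6, 250 bases up to the annotated start, with capitals marking 2 motifs that were searched on both strands, GGCGCC (a BMP-responsive element) and TTCNNNGAA (a STAT element). Hamp is at chr7:30944030-30944279 on the minus strand, and Igfbp2 at chr1:72824230-72824479 on the plus strand.
Hamp: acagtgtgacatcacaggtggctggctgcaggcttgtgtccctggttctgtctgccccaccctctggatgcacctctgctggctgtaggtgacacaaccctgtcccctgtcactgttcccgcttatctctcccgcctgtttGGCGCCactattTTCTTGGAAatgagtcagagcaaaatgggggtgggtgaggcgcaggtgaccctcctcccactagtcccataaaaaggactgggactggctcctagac
Igfbp2: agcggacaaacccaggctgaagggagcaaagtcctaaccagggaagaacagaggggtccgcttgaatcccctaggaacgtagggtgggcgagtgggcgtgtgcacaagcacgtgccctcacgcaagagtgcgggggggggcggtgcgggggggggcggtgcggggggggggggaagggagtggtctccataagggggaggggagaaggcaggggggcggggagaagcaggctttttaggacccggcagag
The Hamp window holds GGCGCC at position -109 and TTCNNNGAA at position -97 from the RefSeq start, and neither motif is in the window of Igfbp2. Of 32544 promoter windows of 300 bases (250 before and 50 after the start), 11.9% hold GGCGCC and 8.33% hold TTCNNNGAA, so that either match alone is common. A match is a description of the letters and not a test of binding.

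The midlobular nuclei carried the transcripts of both zonal programs. UMIs of both score lists were present in 91.4% of midlobular nuclei, compared with 60.4% of pericentral and 40.1% of periportal nuclei, which follows from the rule and was not tested. Zonal genes outside the score were also intermediate. All 12 other pericentral genes examined, among them Cyp7a1 (the rate-limiting enzyme of bile acid synthesis), had a midlobular mean between both ends, and so did 13 of 14 other periportal genes. For Cyp7a1 the mean level was 361 ± 160 UMI counts scaled to the library total (CPM; SD, n = 8) in pericentral, 138 ± 82.9 in midlobular and 9.37 ± 6.95 in periportal nuclei. Of 23043 genes tested outside the score, 11892 had a midlobular mean between both ends and 6819 had it as the highest of the 3 means, before any test. Summed hepatocyte markers, which include the score gene Cyp2e1, were at 10974 to 16687 CPM in the midlobular nuclei of the 8 mice. They were at 8538 to 14415 CPM in pericentral and 10963 to 16627 CPM in periportal nuclei, and the midlobular sum was above the pericentral sum in every mouse. The midlobular nuclei were no single cluster of the authors' annotation. They came from 9 clusters, of which they made up between 2.76% and 65.3%.

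The midlobular nuclei were also shallower. Their median UMI count averaged 8548 ± 3390 over the 8 mice, against 11695 ± 3250 in pericentral and 10588 ± 2784 in periportal nuclei. The midlobular value was below the mean of both ends in 8 of 8 mice (difference -2594 ± 695, exact paired permutation test, 2-sided p = 0.0078, the smallest this design allows, adjusted p = 0.025 over 22 tests). Their spliced share was above the mean of both ends in 8 of 8 mice and above each end in 7, at 18.1% against 16.5% and 17.5% (same p and adjusted p). Their mitochondrially encoded share was above the mean of both ends in 8 of 8 mice as well, at 0.163% against 0.130% in pericentral and 0.147% in periportal nuclei (same p and adjusted p). The score cannot lie far from 0 in a nucleus with few UMIs of the score genes. A shallower middle thus follows in part from the rule. The mitochondrially encoded share falls with depth, as given below, so that its test is not independent of depth. Median hashtag UMIs averaged 2127 in pericentral, 1976 in midlobular and 1873 in periportal nuclei and were higher in pericentral than in periportal nuclei in 8 of 8 mice, while the difference of the middle from the mean of both ends did not pass the test (exact p = 0.31, adjusted p = 0.43). Summed markers of other cell types stood at 30.3 CPM for endothelial cells (39.9 pericentral, 30.7 periportal), 33.6 for stellate cells (29.2 and 23.3, with the middle above each end in 7 of 8 mice), 12.2 for Kupffer cells (10.7 and 9.19), 7.15 for leukocytes (7.27 and 5.81) and 2.96 for mesothelial cells (2.70 and 2.75). The biliary sum of 160 CPM (142 and 179) came almost entirely from Pkhd1, with Krt19 and Epcam at 0.0817 CPM each, and the stellate sum mostly from Reln at 27.6 CPM. None of these marker sums passed the same test after adjustment. The stellate sum had exact p = 0.023 (adjusted p = 0.064). The Kupffer sum, above each end in 6 of 8 mice, had exact p = 0.039 (adjusted p = 0.086). The endothelial sum was below the mean of both ends in 7 of 8 mice (exact p = 0.070, adjusted p = 0.13). Of 53128 distinct cell barcodes, 337 occurred in more than 1 pool, and 77 midlobular nuclei carried a barcode seen in another pool.

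Hamp was highest in the midlobular nuclei of every liver. Its midlobular level was 102 CPM in the lowest mouse, 305 at the median and 492 in the highest. In the pericentral nuclei the lowest, median and highest mouse had 65.9, 131 and 301 CPM, and in the periportal nuclei 31.7, 152 and 306 CPM. The ranges overlapped between zones because the mice differed, but within each mouse the order held, with a midlobular to pericentral ratio of 1.56 to 3.12 and a midlobular to periportal ratio of 1.42 to 3.23. The fitted difference was 0.94 ± 0.09 (log2, SE) over pericentral and 1.08 ± 0.09 over periportal nuclei. Hamp and Igfbp2 were singled out from these liver data, so that their liver values are a description and carry no test.

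Igfbp2 behaved alike toward the central vein and less so toward the portal tract. Midlobular nuclei had 75.2 CPM in the lowest mouse, 508 at the median and 658 in the highest, pericentral nuclei 42.3, 201 and 296, and periportal nuclei 36.6, 317 and 648. The fitted difference was 1.20 ± 0.11 (log2, SE) over pericentral and 0.56 ± 0.11 over periportal nuclei. The middle was highest in 8 of 8 mice, although in 1 mouse (mouse 7) the midlobular to periportal ratio was only 1.00, at 650 and 648 CPM.

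**Figure D1:**
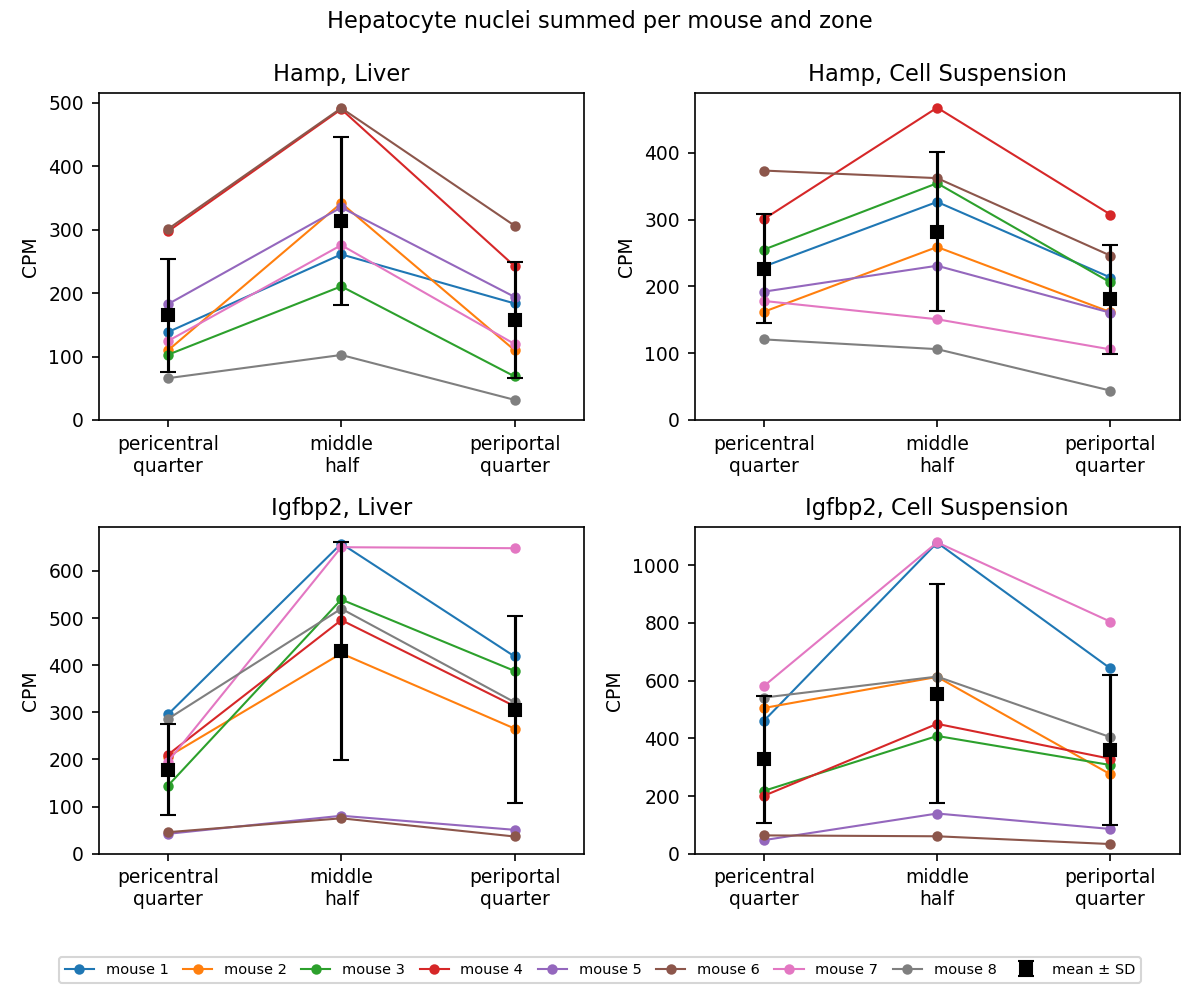
Level of Hamp and Igfbp2 in CPM (y axes, linear from 0) in pericentral, midlobular (middle) and periportal nuclei (x axes), in liver and cell suspension. Each colored line is 1 mouse, and black squares with bars are the mean ± SD of 8 mice. In liver the middle point is the highest of each line for both genes, and in cell suspension it is for 5 of 8 mice (Hamp) and 7 of 8 (Igfbp2).

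The profile of both genes peaked within the middle of the score. Over 10 equal bins of the score, with bin 1 the most periportal, the mean of Hamp was 142 ± 84.0 CPM in bin 1, 380 ± 165 in bin 6 and 84.8 ± 54.0 in bin 10. That of Igfbp2 was 302 ± 194 in bin 1, 500 ± 267 in bin 6 and 99.3 ± 68.6 in bin 10. In 8 of 8 livers the highest bin of either gene lay between bins 5 and 7. Next to the limits of the middle, the means of adjoining bands differed more at the pericentral than at the periportal limit. Hamp was at 172 CPM just outside and 197 just inside the periportal limit, and at 346 just inside and 281 just outside the pericentral limit. The corresponding values for Igfbp2 were 342, 305, 390 and 311 CPM, so that the periportal limit did not separate its levels.

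**Figure D2:**
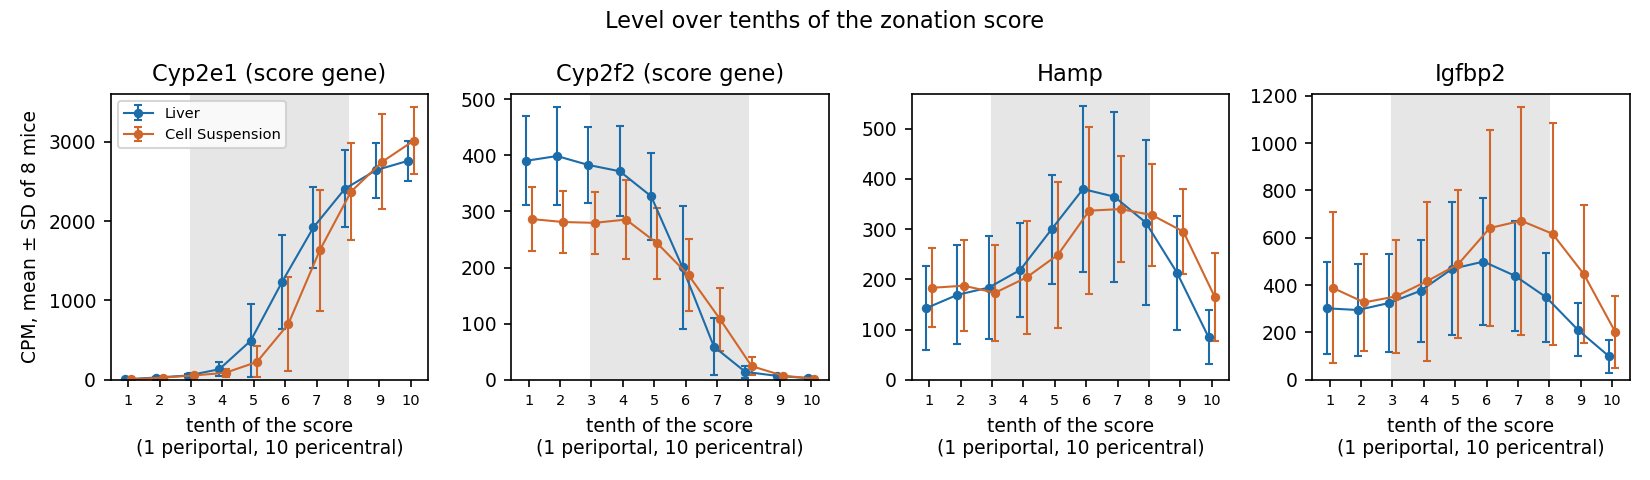
Level in CPM (y axes, mean ± SD of 8 mice) over 10 equal bins of the zonation score (x axes, 1 most periportal, 10 most pericentral) in liver (blue) and cell suspension (orange), with the middle nuclei in gray. The score genes Cyp2e1 and Cyp2f2 run in opposite directions by construction, whereas Hamp and Igfbp2 are highest in bin 6 in liver and in bin 7 in cell suspension.

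The share of nuclei with at least 1 UMI was compared at equal depth, with the zones kept as divided from all counts. After thinning every nucleus to 2000 UMIs, Hamp was detected in 36.6% ± 11.4 of midlobular nuclei (SD, n = 8; 62.7% before thinning), 20.8% ± 9.64 of pericentral nuclei (43.6%) and 21.2% ± 10.9 of periportal nuclei (47.4%). Igfbp2 was detected in 41.9% ± 19.4 (69.2%), 21.5% ± 9.26 (47.3%) and 33.2% ± 16.5 (66.5%), respectively. Endothelial nuclei of the same samples, which should lack both transcripts, had a thinned share of 5.31% for Hamp (9.63% before thinning) and 4.67% for Igfbp2 (8.73%), with a median depth of 3703 UMIs against 7770 in midlobular nuclei. The mean hepatocyte shares were above these, and the source of the UMIs in endothelial nuclei was not tested. Both transcripts together were found in 5.01% to 26.6% of the thinned midlobular nuclei of a mouse, where the product of the single shares was 4.54% to 25.1%. The joint share was above that product in 6 mice and below it in 2.

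The spread between mice exceeded the ratio between zones. Midlobular Hamp spanned 4.80-fold between the lowest (mouse 8) and the highest (mouse 6), and midlobular Igfbp2 8.75-fold between mouse 6 and mouse 1. Mice 5 and 6 had the lowest Igfbp2 of all 8 in each of the 3 liver zones and in the cell suspension middle. For instance, their midlobular level was 80.7 and 75.2 CPM, and the other 6 mice lay at 425 CPM or above. Mouse 6 had at the same time the highest midlobular Hamp, at 492 CPM. Mouse 4 was nearly equal at 490 CPM and had midlobular Igfbp2 at 496 CPM. Mice 1, 2 and 6 shared pool 6 for their liver samples and mouse 5 lay in pool 5, and the part of the pool in this spread was not tested.

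To find further transcripts of the middle, midlobular sums were compared with each end across all genes outside the score (edgeR quasi-likelihood test with mouse as a block, Benjamini-Hochberg adjusted p under 0.05). Alone, 1771 genes were above pericentral nuclei (7.69% of 23043 tested) and 1915 below (8.31%), and 1047 were above periportal nuclei (4.54%) and 695 below (3.02%). Of these, 52 genes were above both ends (0.226%) and 9 below both (0.0391%). The 52 genes include Hamp and Igfbp2, 48 are annotated as protein coding, and in 24 of them the middle was the highest zone in 8 of 8 mice. The differences were mostly small, with a median of 0.35 (log2) over pericentral and 0.38 over periportal nuclei. Over all genes tested it was 0.02 and 0.03, and a higher median in the 52 genes follows from the rule of the call. These p-values rest on the spread within mice. With mouse left out of the edgeR model, 0 genes were called above both ends, and 34 were at an unadjusted p under 0.05 in both contrasts.

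**Figure D3:**
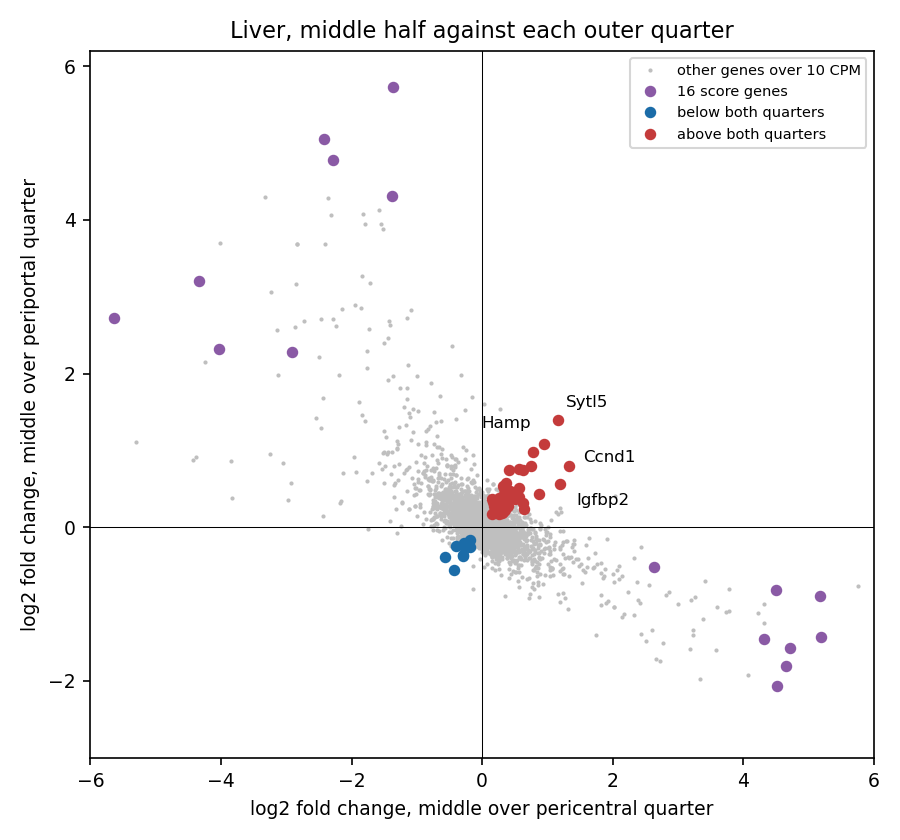
Log2 fold change of midlobular over pericentral nuclei (x axis) against that over periportal nuclei (y axis) in liver, 1 point per gene. Gray points are genes with a level over 10 CPM, purple points the 16 score genes, red points the 52 genes above both ends and blue points the 9 genes below both. Most genes run along the falling diagonal, and the labeled genes Sytl5, Hamp, Ccnd1 and Igfbp2 lie in the upper right, at 1.16, 0.94, 1.33 and 1.20 on the x axis.

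Among the 52 genes were Scd1, Cyp2a12 and Pemt. Scd1, the desaturase that makes monounsaturated fatty acids, was at 162 ± 99.2 CPM in midlobular, 86.3 ± 53.6 in pericentral and 118 ± 76.4 in periportal nuclei, and it was highest in the middle in 8 of 8 mice. Its difference was 0.87 ± 0.06 (log2, SE, edgeR adjusted p = 1.1e-15) over pericentral and 0.44 ± 0.06 (adjusted p = 2.2e-07) over periportal nuclei. Its midlobular level ranged from 38.0 to 374 CPM over the mice with a median of 146, so that the ranges of the zones overlapped widely. Cyp2a12, a cytochrome P450 steroid hydroxylase, had 164 ± 34.7 CPM in the middle and 113 ± 24.0 and 118 ± 19 at the ends, a difference of 0.50 ± 0.08 and 0.44 ± 0.08 (adjusted p = 5.0e-06 and 9.3e-05), and was highest in the middle in 7 of 8 mice. Pemt, which methylates phosphatidylethanolamine to phosphatidylcholine, was at 329 ± 102 CPM against 279 ± 94.0 and 269 ± 88.3, a smaller difference of 0.24 ± 0.05 and 0.30 ± 0.05 in 8 of 8 mice.

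Both carboxylesterase genes among the 52, Ces1e and Ces1b, lie in one gene cluster on chromosome 8. Ces1e had 53.4 ± 18.7 CPM in midlobular against 36.0 ± 16.6 and 41.6 ± 18.5 CPM, and Ces1b 69.7 ± 25.5 against 54.7 ± 18.5 and 50.9 ± 25.3 CPM. The middle was the highest zone of both in 8 of 8 mice. Reads of these similar paralogs may be split between them by the counting, so that their separate values are uncertain. Pemt and Ces1b were named here after their values had been seen, as were the genes Sytl5, Usf2, Gm4673, C4b and Setd4 below.

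Of 6 transcripts listed as midlobular from general knowledge, 3 were above both ends, namely Ccnd1 and the singled-out genes Hamp and Igfbp2, compared with 0.226% of all genes. Ccnd1, which encodes cyclin D1, a driver of cell cycle entry, was low throughout, at 3.88 ± 1.64 CPM in midlobular, 1.60 ± 1.13 in pericentral and 2.27 ± 1.51 in periportal nuclei, with a difference of 1.33 ± 0.27 (log2, SE, edgeR adjusted p = 0.00019) and 0.79 ± 0.25 (adjusted p = 0.042). Its midlobular level ran from 1.46 to 6.42 CPM over the mice, and 7 of 8 mice had the highest level in the middle. Of the others, Mup3, a major urinary protein, was above pericentral nuclei (0.41 ± 0.06) with its highest mean at the periportal end (919 against 816 CPM), and Cyp8b1, the sterol 12-alpha-hydroxylase of cholic acid synthesis, was above periportal nuclei (0.38 ± 0.08) with its highest mean at the pericentral end. Hamp2, the second hepcidin gene of the mouse, had 4.30 ± 3.46 CPM in the middle and was called only over periportal nuclei (0.87 ± 0.23, against 0.24 ± 0.20 over pericentral nuclei, adjusted p = 0.56). Of 25 cell cycle genes, Ccnd1 was the only 1 above both ends (0.226% of all genes).

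Of 32 tested genes of hepcidin control and iron handling, 3 were above both ends (Hamp, which had been singled out, Id1 and Smad7), compared with 0.226% of all genes, and none below both. Alone, 9 were above pericentral nuclei (7.69% of all genes) and 4 below (8.31%), and 7 were above periportal nuclei (4.54%) and 1 below (3.02%). The median of the list was 0.09 and 0.07 (log2), against 0.02 and 0.03 over all genes. Id1 and Smad7 are well-known targets of BMP signaling. Id1 was at 3.57 ± 3.94 CPM in midlobular, 1.85 ± 2.21 in pericentral and 1.67 ± 1.36 in periportal nuclei (difference 0.77 ± 0.25 and 0.97 ± 0.26, edgeR adjusted p = 0.024 and 0.011), but its midlobular level ran from 0.460 to 10.2 CPM with a median of 1.30. Smad7, an inhibitory SMAD, was at 101 ± 42.4 against 82.1 ± 31.7 and 76.5 ± 29.8 CPM (0.26 ± 0.06 and 0.38 ± 0.07). Smad6, the other inhibitory SMAD, was instead graded, being below pericentral (-0.32 ± 0.08) and above periportal nuclei (0.44 ± 0.08).

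Other genes of that list passed in 1 contrast, in neither, or in opposite directions. Slc39a14, a zinc and iron importer, Id2, another BMP target, Trf, which encodes transferrin, and Cp, which encodes the ferroxidase ceruloplasmin, were above pericentral nuclei by 0.31, 0.31, 0.25 and 0.29 (log2) and did not pass over periportal nuclei. The BMP receptor gene Bmpr1a differed by 0.00 ± 0.05 and -0.05 ± 0.05 (log2, SE), Smad1 by 0.11 ± 0.05 and -0.03 ± 0.05, and Hfe2, which encodes the BMP co-receptor hemojuvelin, by 0.13 ± 0.06 over either end, none of which passed. The transferrin receptor gene Tfr2 likewise did not pass (0.09 ± 0.04 and 0.03 ± 0.04). Tmprss6, the protease that cleaves hemojuvelin, was at 142 ± 32.7 CPM in the middle and highest there in 7 of 8 mice, but passed only over pericentral nuclei (0.14 ± 0.05, adjusted p = 0.045; 0.11 ± 0.05 over periportal nuclei, adjusted p = 0.25). Slc40a1, which encodes ferroportin, the target of hepcidin, rose toward the portal end, from 42.7 ± 25.8 CPM in pericentral to 72.5 ± 36.3 in midlobular and 89.0 ± 35.0 in periportal nuclei, with both steps past the test.

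Igfbp2 was the only 1 of 19 tested genes of growth hormone and insulin-like growth factors above both ends, and it is a gene that had been singled out from these liver values (0.226% of all genes were called). Igf1 was graded toward the portal end, at 685 ± 787, 1004 ± 1042 and 1216 ± 1179 CPM in pericentral, midlobular and periportal nuclei, with a midlobular range of 201 to 2786 CPM over the mice. Igfbp1, another carrier of these growth factors, was graded the other way, at 98.0 ± 55.1, 71.2 ± 41.6 and 40.8 ± 25.3 CPM, and so was Socs2, an inhibitor of growth hormone signaling, at 58.3 ± 80.6, 46.4 ± 64.5 and 27.2 ± 42.3 CPM. The growth hormone receptor gene Ghr was at 7457, 7211 and 7055 CPM and did not pass the test in either direction.

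No gene was above both ends among 18 genes of bile acid synthesis, 19 acute-phase genes, 22 major urinary protein genes or 16 early-response genes, which with 0.226% of all genes called is no departure from the background in lists of this size. Of the acute-phase genes, 10 were above pericentral nuclei (7.69% of all genes) and 1 below (8.31%), with a median of 0.30 (log2), while none was above periportal nuclei (4.54%) and 2 were below (3.02%). Of the major urinary protein genes, whose near-identical copies make single values uncertain, 12 were below pericentral nuclei and 5 above, against the same shares of all genes. Outside these lists, C4b, a complement component, had 150 ± 48.7 CPM in the middle against 118 ± 36.3 and 114 ± 40.9 CPM (0.33 ± 0.05 and 0.40 ± 0.05, in 8 of 8 mice). Setd4 stood at 42.6 ± 13.7 against 32.2 ± 9.44 and 36.0 ± 12.7 CPM.

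Further genes named by their size of change were Slc35f1, a member of a solute carrier family, at 11.6 ± 7.48 CPM in midlobular, 7.73 ± 3.03 in pericentral and 7.12 ± 5.70 in periportal nuclei, and Chl1, a neural cell adhesion molecule, at 32.4 ± 19.6, 22.5 ± 13.0 and 25.3 ± 16.1 CPM. Their difference was 0.62 ± 0.14 and 0.74 ± 0.15 (log2, SE) for Slc35f1, and 0.51 ± 0.09 and 0.37 ± 0.08 for Chl1. The predicted genes Gm33838 (0.56 ± 0.07 and 0.52 ± 0.07) and Gm21454 (0.39 ± 0.10 and 0.46 ± 0.10) were called as well, the latter on the Y chromosome, where multicopy sequences leave its reads uncertain. Sytl5, a synaptotagmin-like protein of vesicle transport, had the largest of the smaller differences of all 52 genes, at 1.16 ± 0.22 and 1.40 ± 0.24, but at a level of 3.61 ± 2.62 CPM, and its middle was the highest zone in 6 of 8 mice.

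The genes next to Hamp were examined because 3 of its neighbors were among the 52. Hamp lies at chr7:30942368-30944032 (GRCm38, minus strand, 3 exons). Of 12 other tested genes within 100 kb, the long non-coding RNA gene Gm44662, which overlaps Hamp on the opposite strand, Usf2, which encodes a transcription factor, and Gm4673, annotated as antisense, were above both ends, compared with 0.226% of all genes. Together with Hamp they span 44637 bases, from 30916983 to 30961619. Gm44662 was at 18.3 ± 8.99 CPM in midlobular, 10.8 ± 6.16 in pericentral and 10.6 ± 6.21 in periportal nuclei (0.74 ± 0.11 and 0.79 ± 0.11, 7 of 8 mice). Usf2 differed by 0.26 ± 0.06 and 0.23 ± 0.06, and Gm4673 by 0.33 ± 0.05 and 0.51 ± 0.06.

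Other genes in that stretch did not follow. Lsr, which overlaps Gm4673 on the other strand, was above pericentral (0.57 ± 0.06) and not above periportal nuclei (-0.11 ± 0.05), and Hamp2, which lies within Gm44662, was not above both. Whether reads were assigned by strand is not given in the sources used here, so that reads of Hamp or Usf2 and Gm44662, and of Lsr and Gm4673, cannot be told apart with certainty.

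**Figure D4:**
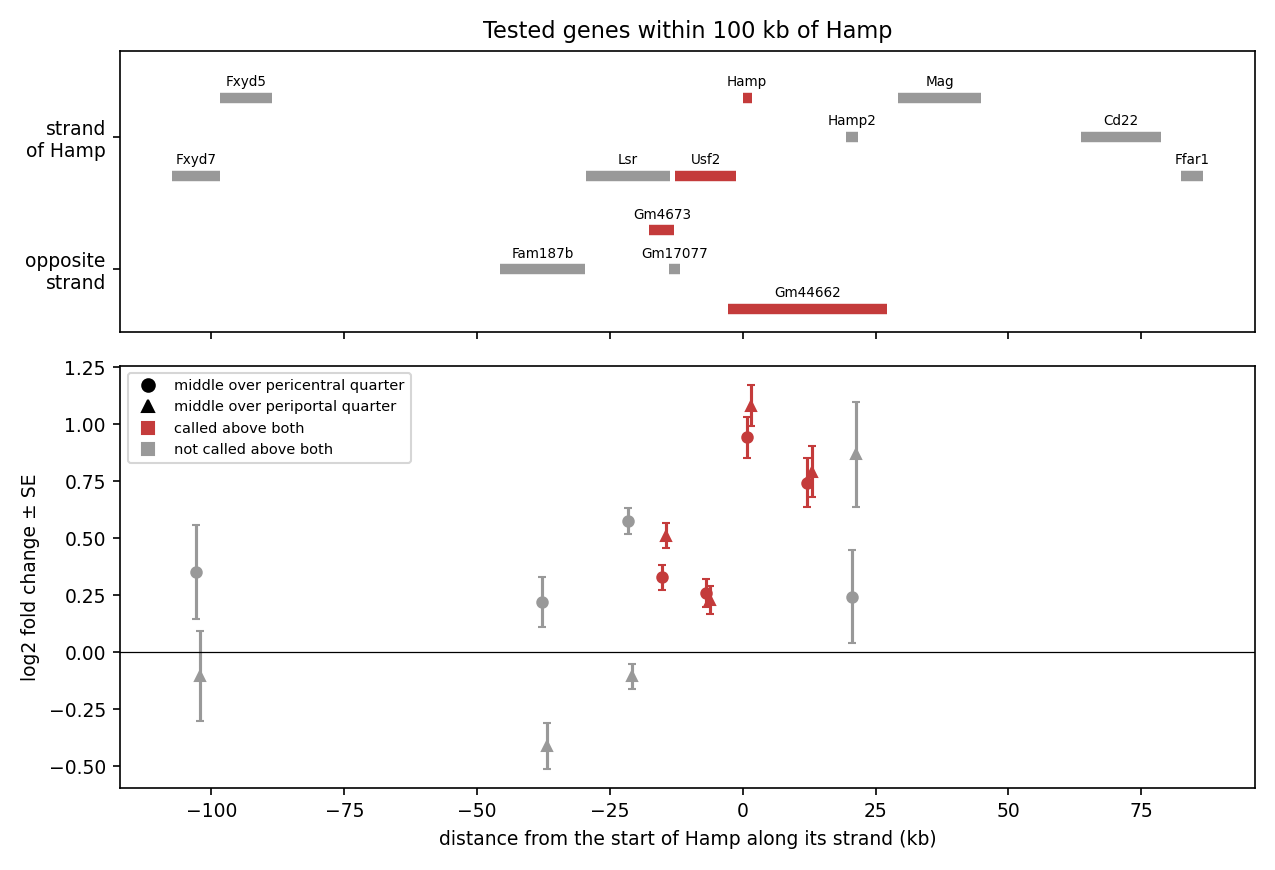
Upper panel, the 13 tested genes within 100 kb of Hamp drawn to scale by strand, with the distance from the start of Hamp in kb along its strand (x axis). Lower panel, log2 fold change ± SE of midlobular over pericentral (circles) and periportal nuclei (triangles) for those at 2 CPM or more, with triangles shifted slightly to the right. The 4 red genes, Hamp, Gm44662, Usf2 and Gm4673, are above both ends, and the genes in gray are not.

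Depth moved with a part of the 52 genes. There were 10 predicted genes in 3 short intervals, 7 of them at chr9:3000922-3033289, 2 at chr2:98662237-98667301 and 1 at chr14:19415857-19418930, that were all above both ends, with a median difference of 0.37 (log2) over pericentral and 0.43 over periportal nuclei. They were grouped after their values had been seen. Their summed level was highest in the middle in 8 of 8 mice, with a median of 1620 CPM against 1330 and 1204 CPM, and it ranged from 344 to 4860 CPM in the middle. Among all divided nuclei ranked by UMIs in each liver, however, their sum went from 4936 ± 3720 CPM in the shallowest 25% to 1040 ± 667 CPM in the deepest, and it reached 29291 ± 13037 CPM in cluster 19 (6 samples). Mitochondrially encoded transcripts went from 2656 ± 652 to 1085 ± 309 CPM over the same range.

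Hamp and Igfbp2 did not follow depth in that way. Hamp was at 218 ± 103 CPM in the shallowest and 233 ± 109 CPM in the deepest 25%, and Igfbp2 at 261 ± 139 and 354 ± 193 CPM. Scd1 was higher in the shallowest (162 ± 78.4 CPM) than in the deepest 25% (120 ± 84.4 CPM). When equal numbers of nuclei of each zone were drawn from the same UMI bins (7488 nuclei in all), 21 genes were above both ends, of which 17 were among the 52, including Hamp, Igfbp2, Scd1, Cyp2a12, Pemt, Ces1e, Ces1b, Ccnd1, Smad7, Sytl5, Slc35f1, Setd4 and the 3 neighbors of Hamp. The difference of Hamp was then 0.99 and 1.13 (log2), and that of Igfbp2 1.26 and 0.59. Of the 10 predicted genes none was called, with a median of 0.03 and 0.13. Gm33838, Gm21454, Chl1, C4b and Id1 were also no longer called, although Id1 retained its size (0.94 and 0.93). Of the mitochondrially encoded genes mt-Co3 and mt-Nd2, which were among the 52 and are named after their values had been seen, neither was called. Fewer nuclei entered this comparison. In another setting each nucleus was thinned to 2000 UMIs, which lowers the counts of every gene, and was scored and divided again from the thinned counts. Zone membership could thus change along with depth. There, 19 genes were above both ends, of which 9 were among the 52, including Hamp, Igfbp2, Scd1, Cyp2a12, Pemt and Ces1e. Slc35f1 (0.66 and 0.34, edgeR adjusted p = 0.061 and 0.65) and Gm44662 (0.57 and 0.37, adjusted p = 0.079 and 0.53) were then no longer called, and neither were Ces1b, Ccnd1, Smad7, Sytl5, Setd4, Usf2 and Gm4673.

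**Figure D5:**
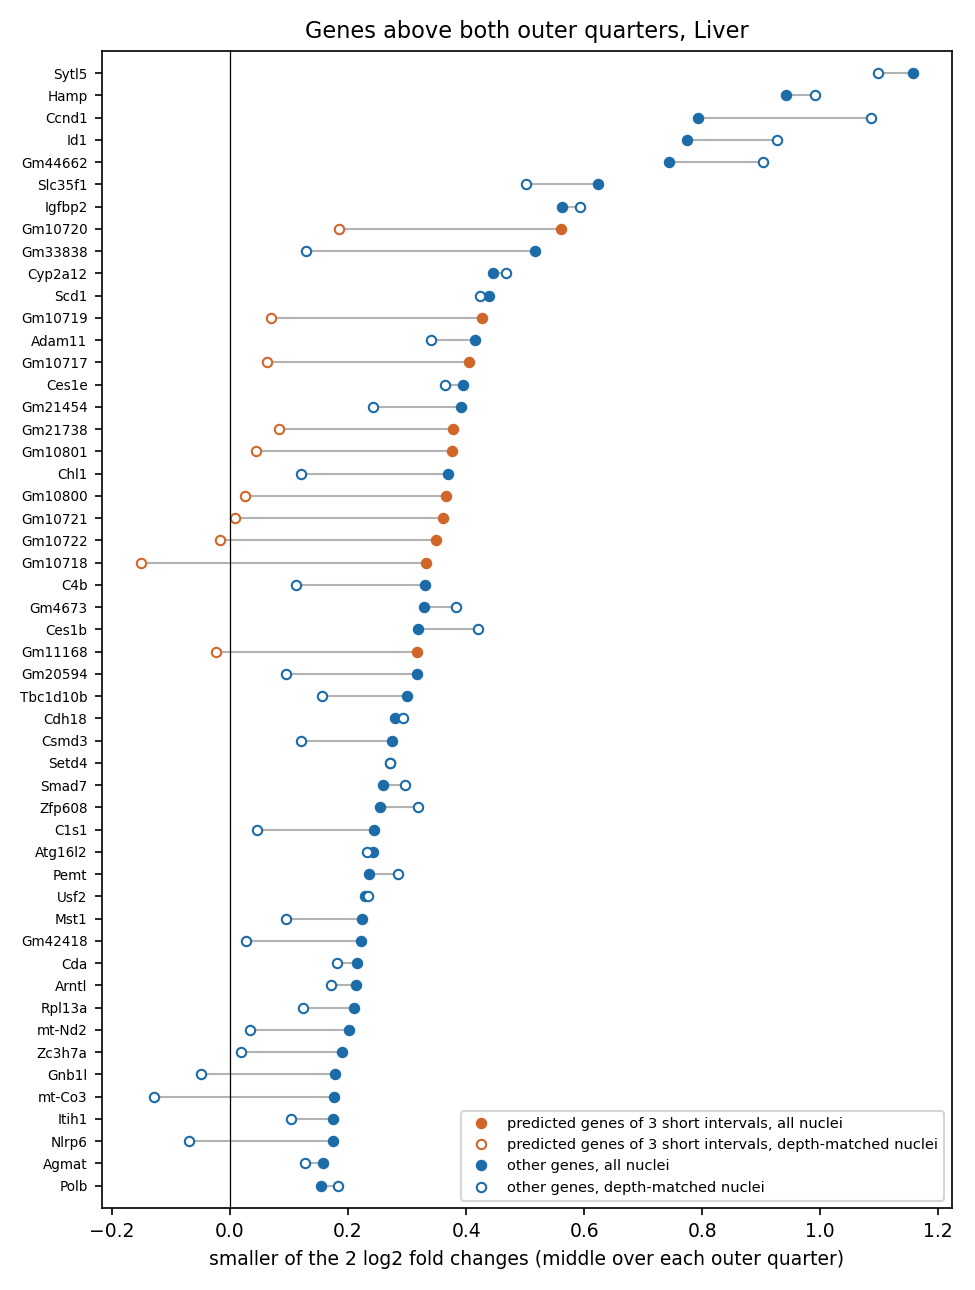
The smaller of each gene's 2 log2 fold changes (midlobular over pericentral and over periportal nuclei, x axis) for 51 of the 52 genes above both ends (y axis), with all nuclei (filled) and with depth-matched nuclei (open). Orange marks the 10 predicted genes of 3 short intervals, whose open circles lie between -0.15 and 0.18, and blue the other genes.

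The 9 genes below both ends had small differences, and their number depended on the processing, with 0 for spliced counts alone, 1 with thinned nuclei, 3 without mouse 2 and 19 to 25 with RLE scaling, filterByExpr, DESeq2 or zones of equal size. Examples are Fut8, the fucosyltransferase of N-glycan cores, at 41.2 ± 12.1 CPM in midlobular against 53.7 ± 13.6 and 49.6 ± 17.2 CPM (-0.40 ± 0.08 and -0.25 ± 0.08), and Arhgap6, a GTPase-activating protein, at 202 ± 31.6 against 244 ± 40.2 and 263 ± 60.4 CPM (-0.29 ± 0.08 and -0.36 ± 0.08). Tpmt, the thiopurine methyltransferase, was at 59.4 ± 10.6 against 68.4 ± 12.6 and 73.1 ± 13.6 CPM, and Sept11, a septin, at 10.3 ± 4.08 against 12.6 ± 4.19 and 13.5 ± 5.48 CPM. Sept11 was the only gene with its lowest level in the middle in 8 of 8 mice. Gm17276 and Ugt2b37 complete the 6 named genes, with Ugt2b37 at a median of 1.61 CPM in the middle and up to 19.2 CPM in mouse 5.

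The freshly isolated cells, whose nuclei the rule did not use, served to test the same pattern in other samples of the same mice. There, 9903 hepatocyte nuclei were divided in the same way, of which 5029 were in the middle. They pooled nuclei that the authors annotated as hepatocytes, the only label used for liver, with nuclei annotated as isolated hepatocytes. The part of this mix in the zone differences was not tested. Hamp was above periportal nuclei by 0.66 ± 0.09 (log2, SE, edgeR adjusted p = 3.3e-09) and above pericentral nuclei by 0.26 ± 0.09 (adjusted p = 0.030). The middle had 106, 293 and 468 CPM in the lowest, median and highest mouse, the pericentral nuclei 121, 211 and 373 CPM, and the periportal nuclei 44.0, 184 and 308 CPM. The middle exceeded the periportal nuclei in 8 of 8 mice and the pericentral nuclei in 5 of 8, with ratios to the latter of 0.846 to 1.60. The call over pericentral nuclei was lost without mouse 2 (edgeR adjusted p = 0.080) or mouse 4 (adjusted p = 0.10), with DESeq2 (adjusted p = 0.16), at least 4000 UMIs (adjusted p = 0.21), the first 4 score genes (adjusted p = 0.16) or no block (adjusted p = 0.87), and the difference was 0.073 when the middle and both ends were cut to equal size (adjusted p = 0.80). With depth-matched nuclei it was instead 0.46 (adjusted p = 8.6e-07).

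Igfbp2 was higher in the middle of cell suspension in both contrasts. It was above pericentral nuclei by 0.71 ± 0.10 (log2, SE, edgeR adjusted p = 2.6e-08) and above periportal nuclei by 0.64 ± 0.10 (adjusted p = 1.1e-06). The middle had 60.6, 532 and 1079 CPM in the lowest, median and highest mouse, the pericentral nuclei 47.2, 339 and 581 CPM and the periportal nuclei 33.7, 318 and 804 CPM. The middle exceeded the pericentral nuclei in 7 of 8 mice, mouse 6 being the exception at a ratio of 0.952, and the periportal nuclei in 8 of 8. The middle nuclei of cell suspension were also shallower than the mean of both ends in 8 of 8 mice (median UMIs 3923 against 5684 and 6620), but below each end in only 4. The pericentral value was 13511 in mouse 3. As in liver, a shallower middle follows in part from the rule. The mesothelial marker sum of the middle was 3.23 CPM against 1.84 and 2.03 CPM, above the mean of both ends in 8 of 8 mice and above each end in 6. This sum rests on few UMIs, at 1.30 to 7.36 CPM in the middle over the mice. The exact paired permutation test gave p = 0.0078 and adjusted p = 0.025 for depth and for the mesothelial sum. Their stellate marker sum was 32.1 CPM against 23.7 and 22.8 CPM, above each end in 6 of 8 mice (exact p = 0.031, adjusted p = 0.076), and Reln, which made up most of it in liver, was above both ends (0.49 ± 0.12 and 0.54 ± 0.12). With depth-matched nuclei, Igfbp2 was above pericentral nuclei by 0.92 and above periportal nuclei by 0.73 (log2, edgeR adjusted p = 2.4e-17 and 6.3e-12). The part of the mesothelial and stellate sums in the results was not tested.

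Across all genes in cell suspension, 36 of 20513 were above both ends (0.175%) and 4 below both (0.0195%). With depth-matched nuclei 5 genes were above both ends there, of which 4 were among the 36. With thinned nuclei it was 6 genes, of which 5 were among the 36, and with at least 4000 UMIs 6 genes, all 6 among the 36. Of the 52 liver genes, 16 were among the 36, which is 30.8% of the liver genes and 44.4% of the cell suspension genes. With depth-matched nuclei in both sample types, 3 genes were shared, namely Hamp, Igfbp2 and Scd1. Next to these 3, the 16 genes were Ces1e, Ccnd1, Chl1, Gm33838, Gm20594 and 8 of the 10 predicted genes of the short intervals. Of the 52, 18 were above pericentral nuclei (background 4.87%) and 34 above periportal nuclei (background 3.7%), and 45 had a positive difference in both directions, compared with 30.1% of all genes tested. None of the 9 genes below both ends in liver was below both in cell suspension. Of 19 acute-phase genes, 2 were above both ends there, Itih3 (0.48 ± 0.09 and 0.38 ± 0.08) and Itih4 (0.50 ± 0.08 and 0.30 ± 0.08), where none was in liver, and this difference between sample types was not tested. Itih1, of the same family but not on that list, was among the 52 liver genes (0.26 and 0.17, highest in the middle in 8 of 8 mice) and not above both ends in cell suspension. It is named after its values had been seen. Neither Usf2 nor Gm4673 nor Gm44662 was above both there, with a difference over pericentral nuclei of -0.01 ± 0.09, 0.04 ± 0.10 and 0.18 ± 0.13 (log2, SE). Over periportal nuclei Gm4673 (0.36 ± 0.10, edgeR adjusted p = 0.011) and Gm44662 (0.51 ± 0.14, adjusted p = 0.0088) passed and Usf2 did not (0.16 ± 0.09, adjusted p = 0.43). Smad7 and Id1 were likewise not above pericentral nuclei (-0.05 ± 0.09 and -0.14 ± 0.36). The middle level of Smad7 exceeded the periportal level in every mouse, for instance at 64.9 against 44.2 CPM in mouse 3, and that of Id1 did so in some mice only.

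Fasn and Angptl8 were among the 36 genes above both ends in cell suspension and not among the 52 of liver. Fasn, which encodes fatty acid synthase, was at 1336 ± 361 CPM in the middle against 837 ± 324 in pericentral and 1138 ± 388 in periportal nuclei, with a difference of 0.69 ± 0.08 (log2, SE, edgeR adjusted p = 4.5e-11) and 0.25 ± 0.08 (adjusted p = 0.047). In liver it was graded toward the portal end, at 95.5, 180 and 208 CPM from pericentral to periportal, and lay below periportal nuclei (-0.24 ± 0.06, adjusted p = 0.010). Angptl8, an inhibitor of lipoprotein lipase that rises with feeding, was at 234 ± 140 CPM against 167 ± 109 and 168 ± 104 CPM in cell suspension. Both were named after their values had been seen, and the difference between sample types in these contrasts was not tested. Few of the 36 calls held with depth-matched or thinned nuclei or with at least 4000 UMIs, as given above.

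Finally, midlobular nuclei of liver were compared with the middle nuclei of cell suspension and with 15169 cultured hepatocyte nuclei, which were not divided. The latter had at least 2000 UMIs and were annotated by the authors as cultured cells, so that any nuclei of these samples under other labels were left out. Pool was not a term of this fit, since the sample types of a mouse mostly lay in different pools. Between liver and cell suspension, 3042 genes were lower (11.8% of 25783) and 1774 higher (6.88%). Of the 52 genes, 1 was lower and 11 were higher, with a median of -0.05 (log2) against -0.01 over all genes. Since these genes were chosen on the same liver sums, this comparison is a description. In other settings the number lower was counted among the genes above both ends in that setting. It was 0 to 3 without 1 mouse each (3 without mouse 3 or 5, 0 without mouse 4, 7 or 8). With spliced counts alone it was 8 of 34 genes, and with at least 4000 UMIs 8 of 45. Hamp and Igfbp2 did not pass the test (0.02 ± 0.23 and 0.47 ± 0.30, edgeR adjusted p = 0.98 and 0.33), and Scd1 was higher by 2.00 ± 0.22 (adjusted p = 9.0e-08), at 561 ± 270 against 162 ± 99.2 CPM and in 8 of 8 mice. Of the 16 early-response genes, 15 were higher in the cell suspension middle, with a median of 3.76.

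After 24 h of culture, 6089 genes were lower (23.6%) and 7776 higher (30.2%) than in midlobular liver nuclei. Of the 52 genes, 24 were lower and 10 higher, with a median of -0.57 (log2) against 0.22 over all genes. The 52 genes were chosen for a high level in the same midlobular liver sums, so that their direction is not independent of that choice. Hamp fell from 313 ± 133 to 13.3 ± 4.84 CPM (-4.94 ± 0.27, edgeR adjusted p = 2.5e-15), with 7.03 to 23.2 CPM over the 8 cultures and no overlap with any liver zone. Igfbp2 fell from 431 ± 231 to 9.80 ± 2.10 CPM (-5.47 ± 0.38, adjusted p = 3.5e-13), with 7.15 to 13.7 CPM and likewise no overlap. Pools 2 and 5 held both sample types, with 2 livers and 3 cultures, and the part of the pool in the difference was not tested. In pool 2, Hamp was at 490 CPM in the liver and 14.05 CPM in the culture sample and Igfbp2 at 496 and 8.81 CPM, and in pool 5, Hamp was at 335 CPM in the liver and 23.2 and 15.6 CPM in 2 cultures, and Igfbp2 at 80.7 CPM against 9.80 and 13.7 CPM. Thinned to 2000 UMIs, 3.14% ± 1.16 of cultured nuclei had a Hamp UMI (7.97% before thinning) and 2.27% ± 0.470 an Igfbp2 UMI (6.69%), at a median depth of 6389 UMIs. These shares are below those of endothelial nuclei in liver tissue, and no such share was measured in pools 3 and 4, which held 5 of the 8 cultures and no liver. Pemt (-5.07 ± 0.18), Ces1e (-4.28 ± 0.15) and Gm44662 (-4.29 ± 0.23) fell by similar amounts, whereas Sytl5 rose by 2.13 ± 0.19, from 3.61 ± 2.62 to 21.6 ± 8.59 CPM.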

How the data were processed

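Nuclei of 24 samples (8 liver, 8 cell suspension, 8 primary hepatocyte) were sequenced in 6 pools. The authors converted reads with bcl2fastq 2.19.0, quantified them with Salmon's Alevin tools against spliced and unspliced GRCm38 transcripts, removed doublets with scDblFinder, and deposited UMI counts per nucleus (spliced, unspliced and ambiguous) with a table of annotated singlets. The authors' table also holds the margin of hashtag assignment as a fraction, which entered no test. The 3 layers were summed here. Pools held between 41577248 and 74514747 UMIs in annotated nuclei, and midlobular sums between 2849555 and 13043683 UMIs per liver. Counts were summed per sample and zone and tested with edgeR 4.0.16 (TMM scaling, at least 10 counts, mouse as a block, 2-sided quasi-likelihood tests) in R 4.3.3. CPM are per total UMIs of a sum, and fold changes are TMM-scaled. The SE of a fold change is its absolute log2 size divided by the square root of its quasi-likelihood F statistic. Genes were called at a Benjamini-Hochberg adjusted p under 0.05 and named where they were above (15 genes) or below (6 genes) both ends by the most, the former with at least 10 CPM and 7 of 8 mice in order. Scripts were tested on simulated data. Coordinates are from GENCODE vM21, and promoters of 8 of 19 wanted genes were matched in RefSeq. Cultured clusters with more than 1000 CPM of endothelial or stellate markers were left out. Values of 1 gene above both ends are not reported here.

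The members and gene lists were chosen with earlier results of these data known. Same-numbered liver and cell suspension samples come from one liver, and their deviations from the group means correlated at 0.43 to 0.88 (3861 genes). For cultures the correlation with liver was 0.05 at the median, so that their pairing rests on the number alone. Alternatives were other scalings, filters, DESeq2 1.42.0, no block, splicing states, depths, score settings and leaving out each mouse. Depth-matched nuclei were added after seeing the data.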

Additional observations from a re-analysis of the deposited data

Results flagged for a closer look

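Of 71 groups of 8 samples checked, 5 had 1 sample farther from the others than Dixon's 95% limit allows, and chance flags about 1 in 20. In primary hepatocytes, Gm44662 was at 2.24 CPM in mouse 3 and between 0.747 and 1.40 in the others, and Scd1 was at 97.5 CPM in mouse 6 and between 33.9 and 59.9 in the others. Ugt2b37 was at 19.2 CPM in the midlobular liver nuclei of mouse 5 and between 0.664 and 8.10 in the others. The same mouse had 12.1 CPM in the middle nuclei of cell suspension, where the others lay between 0 and 5.10. The mitochondrially encoded percent of middle nuclei in cell suspension was 0.292 in mouse 1 and between 0.121 and 0.163 in the others.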

How the results depend on the processing

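Hamp, Igfbp2 and the counts of genes were recomputed under 21 alternatives and the UMIs per liver nucleus under 12, and no direction among these was reversed. Without the replicate block (mouse left out), 0 genes were above both ends and 0 below in liver (34 and 12 at an unadjusted p under 0.05 in both contrasts), 0 were shared with cell suspension and 0 of them were lower there or in culture. In that fit Hamp in cell suspension had 0.28 over pericentral (adjusted p = 0.87) and 0.63 over periportal nuclei (adjusted p = 0.71), and Igfbp2 0.72 (adjusted p = 0.72) and 0.62 (adjusted p = 0.85). Hamp over pericentral nuclei in cell suspension was also lost with DESeq2 (0.23, adjusted p = 0.16), at least 4000 UMIs (0.20, adjusted p = 0.21), the first 4 score genes (0.20, adjusted p = 0.16) and a middle and ends of equal size (0.073, adjusted p = 0.80), and it lay between 0.23 and 0.35 without 1 mouse each.

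Genes above both ends in liver numbered 83 with at least 1 count, 34 with spliced counts, 19 with thinned and 21 with depth-matched nuclei, and 45 to 57 without 1 mouse each. Genes below both ends numbered 19 with RLE scaling, 23 with filterByExpr, 23 with DESeq2, 0 with spliced counts, 1 with thinned nuclei, 5 with the first 4 score genes, 25 with zones of equal size, and 3 to 12 without 1 mouse each (3 without mouse 2). Genes shared with cell suspension numbered 10 with spliced counts, 3 with thinned nuclei, 5 at 4000 UMIs, 9 with zones of equal size, 3 with depth-matched nuclei, and 11 to 19 without 1 mouse each. The number lower in the cell suspension middle was 0 with RLE, DESeq2 or the first 4 score genes, 4 with at least 1 count, 2 with unspliced and 8 with spliced counts, 3 with thinned nuclei, 8 at 4000 UMIs, 2 at 10 UMIs of score genes, 2 with zones of equal size, and 0 to 3 without 1 mouse each. The number lower in culture was 45 of 83 with at least 1 count and 13 of 19 with thinned nuclei, against 24 of 52. The numbers lower, in the cell suspension middle and in culture, were counted among the genes above both ends in each setting. The median over all genes for culture over liver moved from 0.22 to 0.080 with filterByExpr and to 0.34 with depth-matched nuclei. That for cell suspension over liver moved from -0.01 to 0.16 with DESeq2, a change of sign that RLE scaling (0.062), filterByExpr (0.0068) and thinned nuclei (0.0039) gave as well. The cause of these shifts was not tested.

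Midlobular nuclei held fewer UMIs and mixed lists of zonal genes, and 14.3% of them had under 10 UMIs of score genes, so that a middle score can also come from few counts. This share ran from 5.59% (mouse 3) to 32.6% (mouse 8) over the livers. In the middle nuclei of cell suspension it ran from 4.95% (mouse 4) to 45.1% (mouse 5).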
